A study of Mus musculus with 12 samples.

Results

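The genes described here encode the protein components of the mitochondrial ribosome. They were taken as all protein-coding genes whose symbol starts with Mrpl or Mrps followed by a number, without the pseudogenes named -ps, and there were 78 of them, 49 named Mrpl and 29 named Mrps, among 45321 genes (21647 protein-coding) with a transcript in the deposited tables. All 78 passed the filter on low counts, which 14398 genes passed. RNA came from total CD4+ T cells of C57BL/6 mouse spleen, purified untouched, that is, by removing the other cells. Cells were pretreated for 1 h with the ethanol vehicle or with 1 µM cyclosporin A (CsA). They were then left unstimulated or were stimulated for 2 h with 10 nM PMA and 1 µM ionomycin. The 4 groups, each of 3 libraries, are called vehicle unstimulated, CsA unstimulated, vehicle stimulated and CsA stimulated below, and values are listed in the order of replicates 1, 2 and 3. Nothing in the labels ties replicates to separate animals. The p-values therefore describe the spread among these 12 samples, which may be technical.

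Mitochondria keep a ribosome of their own, which translates the few messages of mitochondrial DNA, all of them for subunits of the respiratory chain and ATP synthase. Its RNA is made inside the organelle, while every one of its proteins is encoded in the nucleus, made in the cytosol and imported. Some of these proteins descend from bacterial ribosomal proteins and others are found only in mitochondrial ribosomes. PMA is an activator of protein kinase C and ionomycin lets calcium into the cytosol, so that the T cell receptor is bypassed, and CsA with cyclophilin blocks calcineurin, the phosphatase that admits NFAT factors to the nucleus.

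Libraries held between 10523816 and 18468044 estimated counts, of which the members took 0.245% to 0.340%, and the lowest count of any member in any library was 41.0, for Mrpl14. The library labelled CsA_PI 2, CsA stimulated replicate 2, stood apart from the rest of its group. Its log2 CPM (read counts relative to library size, scaled by TMM) over all genes correlated with those of replicates 1 and 3 at Pearson r of 0.911 and 0.922, against 0.950 to 0.966 for every other pair of libraries within a group. It correlated more with every unstimulated library (0.949 to 0.987) and most with vehicle unstimulated replicate 2, at 0.987, where no other pair of the 12 libraries passed 0.973. The counts of that pair differed by a chi-square of 3.91 per degree of freedom over the genes tested, more than sampling noise, which gives about 1, but less than in any other pair, the next being 11.8. Whether the label of this library is right was not tested, and every value for CsA stimulated cells from all 12 libraries rests on it. Most results for CsA stimulated cells are therefore given with and without it, and those without it do not depend on its label. The main fit of the tests below takes its spread from all 12 libraries. SE and p-values of the other comparisons, stimulation in vehicle among them, therefore rest on this library too and are mostly given with it. Its summed B cell markers reached 1074 CPM, here of the library total without TMM, against 64.8 and 85.4 in the other libraries of its group, but replicate 2 was also the highest in B cell markers in the other groups, at 1035 (vehicle unstimulated), 1029 and 254 CPM. On the same scale T cell markers summed to between 2050 and 3285 CPM in all libraries, and none of the markers of T, B, CD8 and NK, myeloid or erythroid cells was at 0 throughout a group. What part other cells played in the results below was not tested.

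Per unit of length and of library, measured as TPM, the abundance of transcripts scaled for length and depth, the members together summed to 4898, 4429 and 5948 TPM in the vehicle unstimulated libraries and to 4116, 4319 and 4416 TPM in the vehicle stimulated ones. The highest stimulated sum lay just below the lowest unstimulated sum. With CsA the sums were 5135, 5071 and 5766 TPM without stimulation and 4211, 4301 (replicate 2) and 4432 TPM with it. CsA and vehicle libraries overlapped in both states. Group means were 5091 ± 778, 5324 ± 384, 4284 ± 153 and 4315 ± 111 TPM (SD, n = 3) for vehicle unstimulated, CsA unstimulated, vehicle stimulated and CsA stimulated cells, and 3 libraries against 3 cannot give an exact p below 0.1. In bulk RNA, fewer cells with a transcript and less of it per cell cannot be told apart. Names of the large subunit summed to 1.5 to 1.68 times the TPM of those of the small subunit in every library.

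Single members differed in level by more than the groups did. In vehicle unstimulated cells the highest mean levels were those of Mrpl58 at 151 ± 47.7, Mrpl30 at 149 ± 1.39, Mrps21 at 140 ± 36.9, Mrps24 at 139 ± 22.4 and Mrpl15 at 130 ± 24.2 TPM (SD, n = 3). These neighbours differed by less than their spread. The lowest were Mrpl11, at 5.51 ± 0.96, Mrps2 at 10.5 ± 1.73, Mrpl57 at 11.3 ± 0.35, Mrps31 at 12.5 ± 1.22 and Mrpl35 at 12.9 ± 3.15 TPM. Mrpl11 lay below the others in TPM. Of their ranges, those of Mrpl57 and Mrps31 did not overlap each other, and Mrps2 overlapped Mrpl57 as Mrps31 did Mrpl35. All annotated transcripts were quantified for 57 members, Mrps2 among them. For Mrpl11 1 of 5 was, for Mrpl57 and Mrps31 1 of 2 and for Mrpl35 1 of 3. What part this had in their low TPM was not tested. In estimated counts Mrpl11, at 146, 162 and 200, lay above Mrpl52, at 132, 151 and 98, in vehicle unstimulated libraries. After stimulation Mrpl58 was at 32.2 ± 4.85 TPM and Mrps2 at 34.8 ± 4.63 TPM, and their ranges overlapped.

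Stimulation of vehicle-treated cells moved members in both directions. By edgeR's quasi-likelihood test at an adjusted p under 0.05, 19 members rose and 15 fell, 43.6% of the 78. Over all genes tested 39.8% were called, 20.1% higher and 19.7% lower. The members' median log2 fold change was 0.03, against -0.02 over all genes. The largest rises were those of Mrpl16, Mrps2, Mrpl17, Mrpl12 and Mrpl50, and the largest falls those of Mrpl14, Mrpl58, Mrpl34, Mrps16 and Mrpl18. Leaving out each of the 12 libraries in turn, 13 rises kept their call in every refit (Mrpl3, Mrpl12, Mrpl15, Mrpl16, Mrpl17, Mrpl20, Mrpl32, Mrpl50, Mrps2, Mrps6, Mrps7, Mrps18b and Mrps30), as did 6 falls (Mrpl14, Mrpl18, Mrpl22, Mrpl34, Mrpl58 and Mrps16). Among these rises, all counts of Mrpl32 came from its 1 quantified transcript, which the annotation does not class as protein-coding, and such transcripts took 78.6% to 89.4% of the counts of Mrpl3 and 75.1% to 85.1% of those of Mrpl15 in a library. The count of falls was 7 without vehicle unstimulated replicate 3, where 32.5% of all genes were called and 16.6% were lower, and 9, 8 and 8 without vehicle stimulated replicates 1, 2 and 3, where 14%, 14.7% and 14.9% of all genes were lower. The fit without CsA stimulated replicate 2 called 20 higher and 18 lower, and 43.7% of all genes. Newly called there were Mrpl19, higher, and Mrpl1, Mrps25 and Mrps33, lower. For Mrpl17 the SE was 0.39 with that library and 0.18 without it, and for Mrps2 0.38 and 0.18. For Mrpl1 it hardly changed, at 0.234 and 0.233.

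How many members rose depended on what the libraries were scaled to. TMM factors were 0.734 to 0.792 in the vehicle stimulated libraries and 1.12 to 1.21 in all unstimulated ones. Scaled to library totals alone, the median over all genes moved to -0.63 and that of the members to -0.58, and 9 members were called higher and 43 lower, where 11% and 37.8% of all genes were. The same 9 had also risen under TMM (Mrpl3, Mrpl12, Mrpl16, Mrpl17, Mrpl50, Mrps2, Mrps6, Mrps18b and Mrps30), and the 43 held all 15 that fell. With limma on log2(TPM + 1), 10 were higher and 36 lower, against 12.2% and 32.8% of all genes tested. No member called under TMM was called the other way under these scalings. Of the called rises, Mrpl21 had a log2 fold change of 0.61 under TMM and -0.0020 under library totals. Fold changes below are TMM-scaled and so relative to the bulk of genes.

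**Figure D1:**
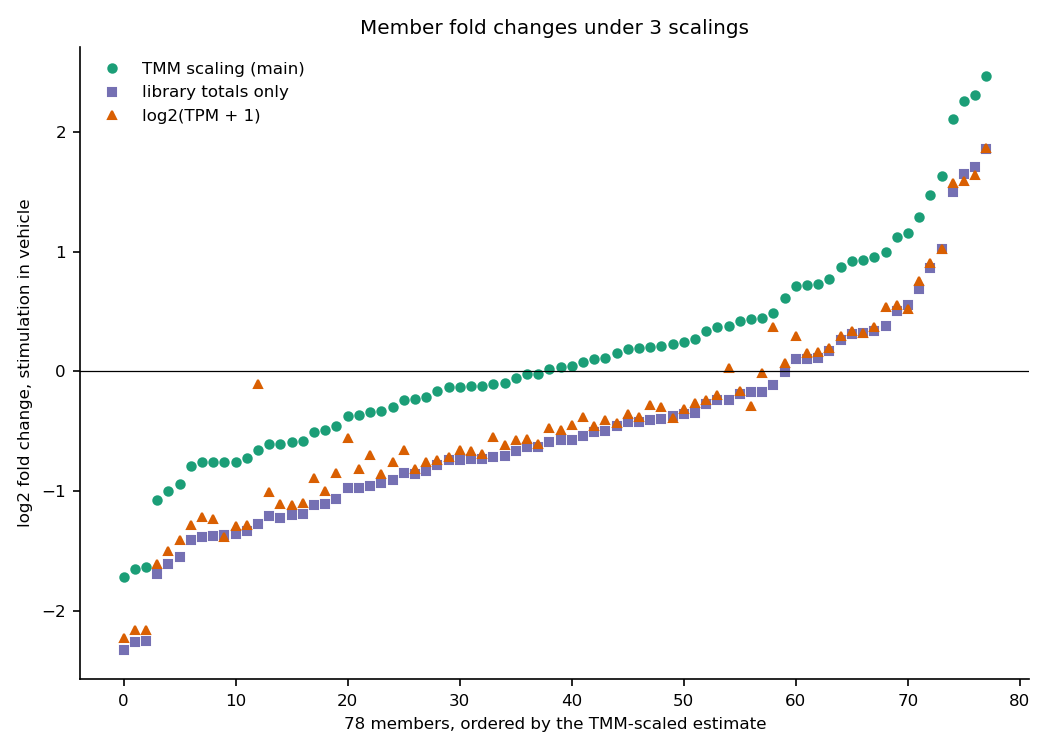
Log2 fold change on stimulation in vehicle (vertical axis) of the 78 members, ordered by their TMM-scaled estimate (horizontal axis), under TMM scaling (circles), library totals (squares) and log2(TPM + 1) (triangles). All 78 squares and 77 of 78 triangles sit below their circles, Mrps25 being the exception, while both ends of the order stay far from 0.

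The promoters of the 3 largest rises and of the 2 largest falls are shown because these genes moved in opposite directions under the same stimulus. Each sequence runs 5′ to 3′ from 250 bases before to 50 bases after the RefSeq start (build GRCm38.p6), and capitals mark matches to the 6 motifs searched. These were CCGGAAG (the core of ETS-family and GABP sites), GCGCATGC (a core shared by NRF1 sites), CACGTG (the E-box bound by Myc and related factors), AAGATGGCG (YY1), TATAAA (the TATA box) and CCAAT, on both strands. 69 of the 78 symbols had a promoter, in 75 entries.
Mrpl16, rise, chr19:11770165-11770464, plus strand: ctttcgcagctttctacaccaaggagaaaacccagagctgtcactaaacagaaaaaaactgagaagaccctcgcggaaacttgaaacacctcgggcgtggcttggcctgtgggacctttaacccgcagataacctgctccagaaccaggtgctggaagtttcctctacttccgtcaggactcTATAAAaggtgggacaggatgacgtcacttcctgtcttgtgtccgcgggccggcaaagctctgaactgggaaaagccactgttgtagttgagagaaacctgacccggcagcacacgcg
Mrps2, rise, chr2:28467816-28468115, plus strand: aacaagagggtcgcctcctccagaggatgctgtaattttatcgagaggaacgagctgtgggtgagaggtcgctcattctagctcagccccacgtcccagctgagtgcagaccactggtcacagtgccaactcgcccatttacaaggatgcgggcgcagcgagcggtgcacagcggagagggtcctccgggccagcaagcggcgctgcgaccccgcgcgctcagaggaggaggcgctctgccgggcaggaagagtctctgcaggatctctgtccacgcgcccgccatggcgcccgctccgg
Mrpl17, rise, chr7:105811038-105811337, minus strand: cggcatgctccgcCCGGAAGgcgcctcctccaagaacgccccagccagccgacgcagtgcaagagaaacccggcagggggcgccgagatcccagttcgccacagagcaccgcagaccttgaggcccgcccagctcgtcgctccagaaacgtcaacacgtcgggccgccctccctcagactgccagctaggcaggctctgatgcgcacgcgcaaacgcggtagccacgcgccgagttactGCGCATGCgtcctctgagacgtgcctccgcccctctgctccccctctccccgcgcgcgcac
Mrpl14, fall, chr17:45686099-45686398, plus strand: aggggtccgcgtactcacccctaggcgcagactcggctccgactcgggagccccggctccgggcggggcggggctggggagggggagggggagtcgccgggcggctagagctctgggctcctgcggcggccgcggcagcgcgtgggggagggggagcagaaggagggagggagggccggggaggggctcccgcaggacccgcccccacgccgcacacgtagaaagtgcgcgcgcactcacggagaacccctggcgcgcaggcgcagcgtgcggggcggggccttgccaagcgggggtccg
Mrpl58, fall, chr11:115403502-115403801, plus strand: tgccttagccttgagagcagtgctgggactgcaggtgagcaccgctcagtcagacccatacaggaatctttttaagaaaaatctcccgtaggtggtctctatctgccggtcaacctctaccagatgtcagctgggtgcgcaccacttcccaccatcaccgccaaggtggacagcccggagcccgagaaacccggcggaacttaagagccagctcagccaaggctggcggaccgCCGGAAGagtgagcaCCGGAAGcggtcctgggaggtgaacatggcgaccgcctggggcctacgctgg
The Mrpl16 window holds TATAAA 68 bases before the start, that of Mrpl17 has CCGGAAG 237 and GCGCATGC 11 bases before it, and that of Mrpl58 holds CCGGAAG at 17 and at 2 bases before it. None of the 6 motifs was found in the Mrps2 and Mrpl14 windows.

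Over the members, CCGGAAG was the motif whose share differed most, in percentage points, from that of other genes. It was found in 34.67% of the 75 member promoters, in 8.86% of all 32851 promoters and in 17.73% of the 12204 promoters of protein-coding genes that were tested here. Among member promoters it was in 23.53% of the 17 of genes that rose, in 47.06% of the 17 of genes that fell and in 34.15% of the 41 of genes with no call. These shares count promoter entries and not genes, Mrpl2 and Mrps16 having repeated entries among the falls. They were not compared by a test. AAGATGGCG was in 10.67% of member promoters and 2.97% of those of tested protein-coding genes, and GCGCATGC in 10.67% and 5.13%. For CACGTG the shares were 9.33% and 9.94%, for CCAAT 40.0% and 37.86%, and for TATAAA 6.67% and 7.38%. Median GC content was 58.67% in member promoters and 60.33% in promoters of tested protein-coding genes. A match describes the letters and not a bound site.

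Among the stalk proteins, which recruit translation factors to the large subunit, only Mrpl12 was called on stimulation. Mrpl12, which forms the flexible stalk (11:120484613-120489065, plus strand, mm10), was at 47.6, 57.4 and 61.0 CPM in vehicle unstimulated, 61.3, 72.9 and 64.6 in CsA unstimulated, 265, 220 and 230 in vehicle stimulated and 110, 52.5 (replicate 2) and 96.0 in CsA stimulated libraries. Vehicle stimulated libraries were the highest, and of the CsA stimulated ones replicate 2 lay within the unstimulated range and the others above it. Stimulation in vehicle raised Mrpl12 by 2.11 ± 0.24 (log2 fold change ± SE, adjusted p = 3.5e-05, edgeR). CsA lowered it in stimulated cells by -1.47 ± 0.24 (adjusted p = 0.000764), and by -1.17 (adjusted p = 0.000193) without replicate 2. Mrpl10, which anchors the stalk, was at 30.9, 34.3 and 27.5 CPM in vehicle unstimulated, 18.0, 28.8 and 26.7 in vehicle stimulated and 48.0, 33.7 and 45.5 in CsA stimulated libraries. It was higher with CsA in stimulated cells by 0.79 ± 0.21 (adjusted p = 0.0185; 0.97 and 0.0047 without replicate 2), a call lost without vehicle stimulated replicate 1 or CsA stimulated replicate 1 or 3 (adjusted p of 0.0531 to 0.0859). Mrpl11, at the base of the stalk, was called in neither comparison (log2 fold changes of -0.24 and 0.19).

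Around the exit of the peptide tunnel, 2 of 8 members rose on stimulation and 2 fell. Mrpl17, a tunnel-exit protein of bacterial descent (7:105803206-105811099, minus strand), was at 22.7, 24.4 and 27.1 CPM in vehicle unstimulated, 20.8, 36.0 and 27.4 in CsA unstimulated, 123, 114 and 119 in vehicle stimulated and 98.8, 25.7 and 89.9 in CsA stimulated libraries. It rose in vehicle by 2.26 ± 0.39 (adjusted p = 0.000862). CsA stimulated replicates 1 and 3 were below all vehicle stimulated libraries but far above the unstimulated ones, and replicate 2 was at the unstimulated level. Its log2 fold change with CsA in stimulated cells was -0.73 (adjusted p = 0.197), and -0.29 (adjusted p = 0.332) without replicate 2. Mrpl22, whose bacterial counterpart lines the tunnel, was at 24.3, 17.7 and 34.0 CPM in vehicle unstimulated and 11.8, 12.7 and 15.2 in vehicle stimulated libraries, without overlap, and fell (-0.94, adjusted p = 0.00822). Mrpl23, at the tunnel exit, was at 15.8, 19.9 and 19.7 CPM in vehicle stimulated and 10.3, 9.49 and 10.8 in CsA stimulated libraries, and its call as lower with CsA (-0.86, adjusted p = 0.0372) was lost in 7 of the 12 refits without 1 library (adjusted p of 0.0553 to 0.109), that without CsA stimulated replicate 2 among them (-0.77, adjusted p = 0.079). Of its 31-base words 27.46% occur in another gene (Mrpl23-ps1).

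Mrpl44, Mrpl45 and Mrpl39 belong to the same region of the large subunit. Mrpl44, which has the fold of an RNase III enzyme, was at 27.4, 30.0 and 36.6 CPM in vehicle unstimulated, 24.2, 16.6 and 21.8 in vehicle stimulated and 32.7, 26.1 and 41.0 in CsA stimulated libraries. It fell on stimulation (-0.59 ± 0.21, adjusted p = 0.0452) and was higher with CsA (0.67 ± 0.22, adjusted p = 0.0396; 0.86 and 0.0084 without replicate 2). Each call was close to the threshold and was lost in several refits without 1 library, with adjusted p up to 0.164 for the fall (without vehicle stimulated replicate 2) and 0.148 for the rise (also without that library). Mrpl45, which ties the ribosome to the inner membrane, was called in neither comparison, at -0.46 (adjusted p = 0.123) and 0.01. Mrpl39 was at 30.2, 24.1 and 30.0 CPM in vehicle unstimulated, 28.3, 26.0 and 27.0 in CsA unstimulated, 38.5, 35.2 and 36.0 in vehicle stimulated and 79.6, 22.5 and 85.0 in CsA stimulated libraries. Replicates 1 and 3 of the last group were the highest of all 12 libraries and replicate 2 the lowest. Its fold change with CsA in stimulated cells was 0.77 ± 0.36 (adjusted p = 0.151) with replicate 2 and 1.21 ± 0.16 (adjusted p = 0.000106) without it.

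Among the other large-subunit proteins with a bacterial counterpart, 8 of 22 rose on stimulation and 6 fell. Mrpl16, near the site of peptide bond formation (19:11770391-11774960, plus strand), was at 14.5, 18.5 and 21.0 CPM in vehicle unstimulated, 20.4, 24.5 and 18.9 in CsA unstimulated, 106, 88.2 and 105 in vehicle stimulated and 33.0, 18.7 and 32.5 in CsA stimulated libraries. The stimulated groups did not overlap, and replicate 2 was again at the unstimulated level. Mrpl16 rose in vehicle by 2.47 ± 0.24 (adjusted p = 1.36e-05) and was lower with CsA in stimulated cells by -1.83 ± 0.24 (adjusted p = 0.000172), or -1.57 (adjusted p = 8.82e-05) without replicate 2. Mrpl3, whose bacterial counterpart reaches toward the same site, was at 20.5, 34.6 and 30.6 CPM in vehicle unstimulated, 63.6, 65.2 and 62.5 in vehicle stimulated and 42.3, 33.4 and 42.2 in CsA stimulated libraries. It rose by 1.16 ± 0.20 (adjusted p = 0.000783). Its lower level with CsA (-0.70, adjusted p = 0.0249) was no longer called without CsA stimulated replicate 2 (-0.56, adjusted p = 0.0777), CsA unstimulated replicate 3 or any 1 of the vehicle stimulated libraries. Mrpl15 was at 47.6, 53.5 and 63.9 CPM in vehicle unstimulated, 103, 109 and 101 in vehicle stimulated and 74.7, 49.2 and 67.4 in CsA stimulated libraries, with a rise of 0.92 ± 0.18 (adjusted p = 0.00143) and a fall with CsA of -0.71 (adjusted p = 0.012; without replicate 2, -0.51 and adjusted p = 0.0314).

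The same class held the deepest fall. Mrpl14, which lies at the interface of the subunits (17:45686322-45698495, plus strand), was at 17.1, 12.2 and 19.9 CPM in vehicle unstimulated, 18.5, 18.7 and 21.0 in CsA unstimulated, 5.24, 4.66 and 5.05 in vehicle stimulated and 12.4, 12.8 and 12 in CsA stimulated libraries. Here replicate 2 was like the others of its group, and the CsA stimulated libraries lay above the vehicle stimulated ones. They also lay beside the lowest unstimulated library, vehicle unstimulated replicate 2, to which CsA stimulated replicate 2 was closest over all genes. Mrpl14 fell (-1.72 ± 0.23, adjusted p = 0.000101) and was higher with CsA by 1.31 ± 0.22 (adjusted p = 0.00118), or 1.33 (adjusted p = 0.00126) without replicate 2. Mrpl34, a small RNA-binding protein (8:71464959-71465747, plus strand), was at 22.7, 25.8 and 30.6 CPM in vehicle unstimulated, 9.18, 6.99 and 9.24 in vehicle stimulated and 12.2, 22.1 and 11.9 in CsA stimulated libraries. It fell by 1.64 ± 0.26 (adjusted p = 0.000411), and its higher level with CsA (0.87, adjusted p = 0.0296) was not called without CsA stimulated replicate 2 (0.55, adjusted p = 0.0747) or any 1 of the vehicle stimulated libraries (adjusted p of 0.0625 to 0.112).

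Mrpl18, a protein of the central protuberance, was at 52.2, 55.1 and 70.9 CPM in vehicle unstimulated, 31.7, 29.2 and 28.3 in vehicle stimulated and 43.9, 52.2 and 39.8 in CsA stimulated libraries. The vehicle groups did not overlap. CsA stimulated replicates 1 and 3 lay between them and replicate 2 at the lowest unstimulated value. Mrpl18 fell by 1.00 ± 0.17 (adjusted p = 0.00071) and was higher with CsA by 0.61 ± 0.17 (adjusted p = 0.0227; 0.53 and 0.0422 without replicate 2), a call lost without any 1 of the vehicle stimulated libraries (adjusted p of 0.0546 to 0.0861). Mrpl9 was at 78.1, 81.7 and 82.0 CPM in vehicle unstimulated, 97.2, 94.6 and 95.7 in vehicle stimulated and 59.8, 83.7 (replicate 2) and 58.9 in CsA stimulated libraries. The vehicle groups did not overlap, but the difference was not called (0.25 ± 0.16, adjusted p = 0.232). It was lower with CsA in stimulated cells (-0.51 ± 0.16, adjusted p = 0.0355; -0.65 and adjusted p = 0.00233 without replicate 2). That call was lost in 9 of the 12 refits without 1 library, with adjusted p of 0.0707 to 0.125.

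Large-subunit proteins known only from mitochondria had 2 of 16 higher and 3 lower on stimulation. Mrpl50 (4:49512596-49521093, minus strand) was at 29.9, 28.7 and 29.8 CPM in vehicle unstimulated, 31.9, 26.9 and 31.2 in CsA unstimulated, 90.7, 93.9 and 89.2 in vehicle stimulated and 45.6, 26.3 and 51.6 in CsA stimulated libraries. It rose by 1.63 ± 0.22 (adjusted p = 0.000117) and was lower with CsA by -1.15 ± 0.22 (adjusted p = 0.00223), or -0.87 (adjusted p = 0.00114) without replicate 2. Mrpl58, also known as ICT1, a peptidyl-tRNA hydrolase that frees stalled ribosomes and is built into the large subunit (11:115403752-115412674, plus strand), was at 40.8, 31.1 and 57.6 CPM in vehicle unstimulated, 41.3, 41.6 and 54.1 in CsA unstimulated, 14.7, 12.8 and 13.8 in vehicle stimulated and 22.1, 31 and 24.8 in CsA stimulated libraries. Every vehicle stimulated library was below every other library. Mrpl58 fell (-1.65 ± 0.24, adjusted p = 0.000216) and was higher with CsA by 0.92 ± 0.24 (adjusted p = 0.0147; 0.81 and 0.0281 without replicate 2), which was lost only without vehicle stimulated replicate 2 (adjusted p = 0.0568). Mrpl49 was lower on stimulation (-0.79, adjusted p = 0.0204), a call lost without vehicle unstimulated replicate 3 or vehicle stimulated replicate 1 or 2 (adjusted p of 0.0640 to 0.0811), and stood at 0.02 with CsA.

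Of the 2 proteins named Mrps that sit in the large subunit, Mrps30 was called and Mrps18a was not. Mrps30 was at 58.9, 52.2 and 78.8 CPM in vehicle unstimulated, 64.2, 58.5 and 71.5 in CsA unstimulated, 151, 124 and 138 in vehicle stimulated and 69.1, 48.3 and 66.6 in CsA stimulated libraries, the last within or below the unstimulated range. It rose by 1.12 ± 0.20 (adjusted p = 0.000764) and was lower with CsA by -1.17 ± 0.20 (adjusted p = 0.00108), or -0.98 (adjusted p = 0.00212) without replicate 2. The fold changes of Mrps18a were 0.19 (adjusted p = 0.563) and -0.10 (adjusted p = 0.825).

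In the small subunit, 4 of 16 proteins with a bacterial counterpart rose and 3 fell. Mrps2 (2:28468066-28471178, plus strand) was at 10.4, 15.2 and 14.6 CPM in vehicle unstimulated, 10.4, 9.49 and 11.2 in CsA unstimulated, 61.1, 68.2 and 70.3 in vehicle stimulated and 45.1, 12.8 and 44.8 in CsA stimulated libraries. CsA stimulated replicates 1 and 3 kept most of the rise and replicate 2 lay at the unstimulated level. Mrps2 rose in vehicle by 2.31 ± 0.38 (adjusted p = 0.000477), and its fold change with CsA in stimulated cells was -0.96 (adjusted p = 0.074), or -0.53 (adjusted p = 0.0719) without replicate 2. Mrps6 was at 34.2, 60.5 and 42.3 CPM in vehicle unstimulated and 118, 107 and 110 in vehicle stimulated libraries and rose by 1.29 ± 0.25 (adjusted p = 0.00144). Slc5a3, which overlaps Mrps6 on the same strand, rose as well (1.68), and what part its reads had in the rise of Mrps6 was not tested. Mrps7, part of the head of the small subunit, was at 83.1, 82.9 and 104 CPM in vehicle unstimulated, 190, 171 and 178 in vehicle stimulated and 129, 81.7 and 134 in CsA stimulated libraries, and rose by 1.00 (adjusted p = 0.00132). With CsA its fold change was -0.64 (adjusted p = 0.0263), a call lost without CsA stimulated replicate 2 (-0.41, adjusted p = 0.055), CsA unstimulated replicate 3 or any 1 of the vehicle stimulated libraries.

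Mrps28, the mitochondrial relative of bacterial S1, was at 15.3, 11.2 and 15.8 CPM in vehicle unstimulated, 25.0, 23.7 and 21.4 in vehicle stimulated and 13, 8.94 and 12.7 in CsA stimulated libraries, so that the CsA stimulated group was no higher than the unstimulated one. It was lower with CsA by -1.02 ± 0.23 (adjusted p = 0.00692), or -0.82 (adjusted p = 0.0208) without replicate 2, while its rise in vehicle (0.73 ± 0.23, adjusted p = 0.0222) was lost without vehicle unstimulated replicate 1 or 2 or vehicle stimulated replicate 1 or 2. Mrps16 was at 15, 15.2 and 20.0 CPM in vehicle unstimulated, 8.82, 6.60 and 8.38 in vehicle stimulated and 13.8, 14.9 and 10.1 in CsA stimulated libraries. It fell (-1.08 ± 0.23, adjusted p = 0.00266). With CsA its fold change was 0.71 (adjusted p = 0.0414), and that call was lost in 7 of the 12 refits without 1 library (adjusted p of 0.0515 to 0.145), that without CsA stimulated replicate 2 among them (0.64, adjusted p = 0.0746). Blocking on the replicate number also ended it (adjusted p = 0.0553). Mrps18c, a relative of bacterial S18, was at 27.5, 13.8 and 28.8 CPM in vehicle unstimulated and 13.7, 11.9 and 15.8 in vehicle stimulated libraries. These groups overlapped, and its call as lower (-0.76 ± 0.28, adjusted p = 0.0473) was lost in 8 of the 12 refits without 1 library (adjusted p of 0.0509 to 0.141). Mrps12, a protein of the decoding centre, was called in neither comparison, at 0.04 (adjusted p = 0.911) on stimulation and -0.18 with CsA.

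Among the 10 small-subunit proteins classed here as mitochondria-specific, 1 rose and 1 fell. Mrps18b, a relative of bacterial S18 classed here with the mitochondrial proteins, rose from 36.9, 33.1 and 44.9 CPM in vehicle unstimulated to 110, 111 and 98.9 in vehicle stimulated libraries (1.48 ± 0.24, adjusted p = 0.00052), and was at 77.3, 36.9 (replicate 2) and 69.4 CPM in CsA stimulated ones. It was lower with CsA by -0.80 ± 0.24 (adjusted p = 0.0294), or -0.50 (adjusted p = 0.045) without replicate 2, and this call was lost without CsA unstimulated replicate 3 or any 1 of the vehicle stimulated libraries (adjusted p of 0.0505 to 0.0838). Mrps35 fell (-0.75, adjusted p = 0.0292). That call was lost without any 1 of the vehicle stimulated libraries or without vehicle unstimulated replicate 2 (adjusted p of 0.0605 to 0.112). Mrps34, at 50.5, 43.3 and 70.8 CPM in vehicle unstimulated and 62.6, 55.2 and 55.7 in vehicle stimulated libraries, was not called (0.08, adjusted p = 0.809). The fold change of Mrps36, which is also described as a subunit of the 2-oxoglutarate dehydrogenase complex, was -0.23 (adjusted p = 0.438).

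**Figure D2:**
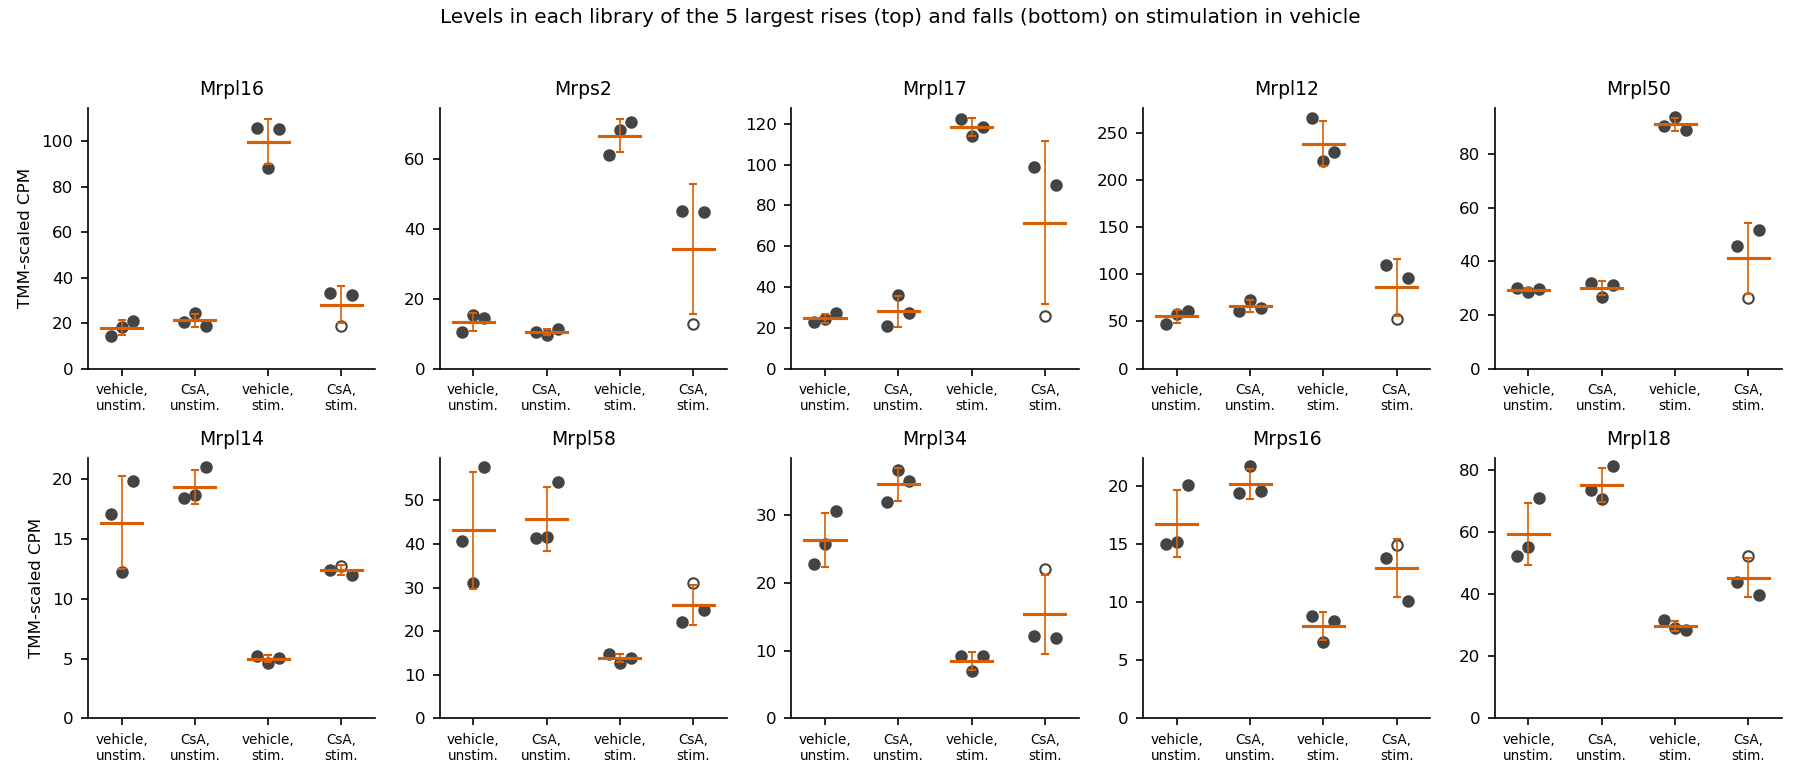
TMM-scaled CPM (vertical axis, from 0) in each library of the 4 groups for the 5 largest rises (top row) and the 5 largest falls (bottom row) on stimulation in vehicle, with the group mean ± SD as a bar and CsA stimulated replicate 2 as a hollow point. In the top row the hollow point lies at or just below the level of the unstimulated libraries, for example 18.7 CPM for Mrpl16, and in the bottom row the vehicle stimulated libraries are the lowest.

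**Figure D3:**
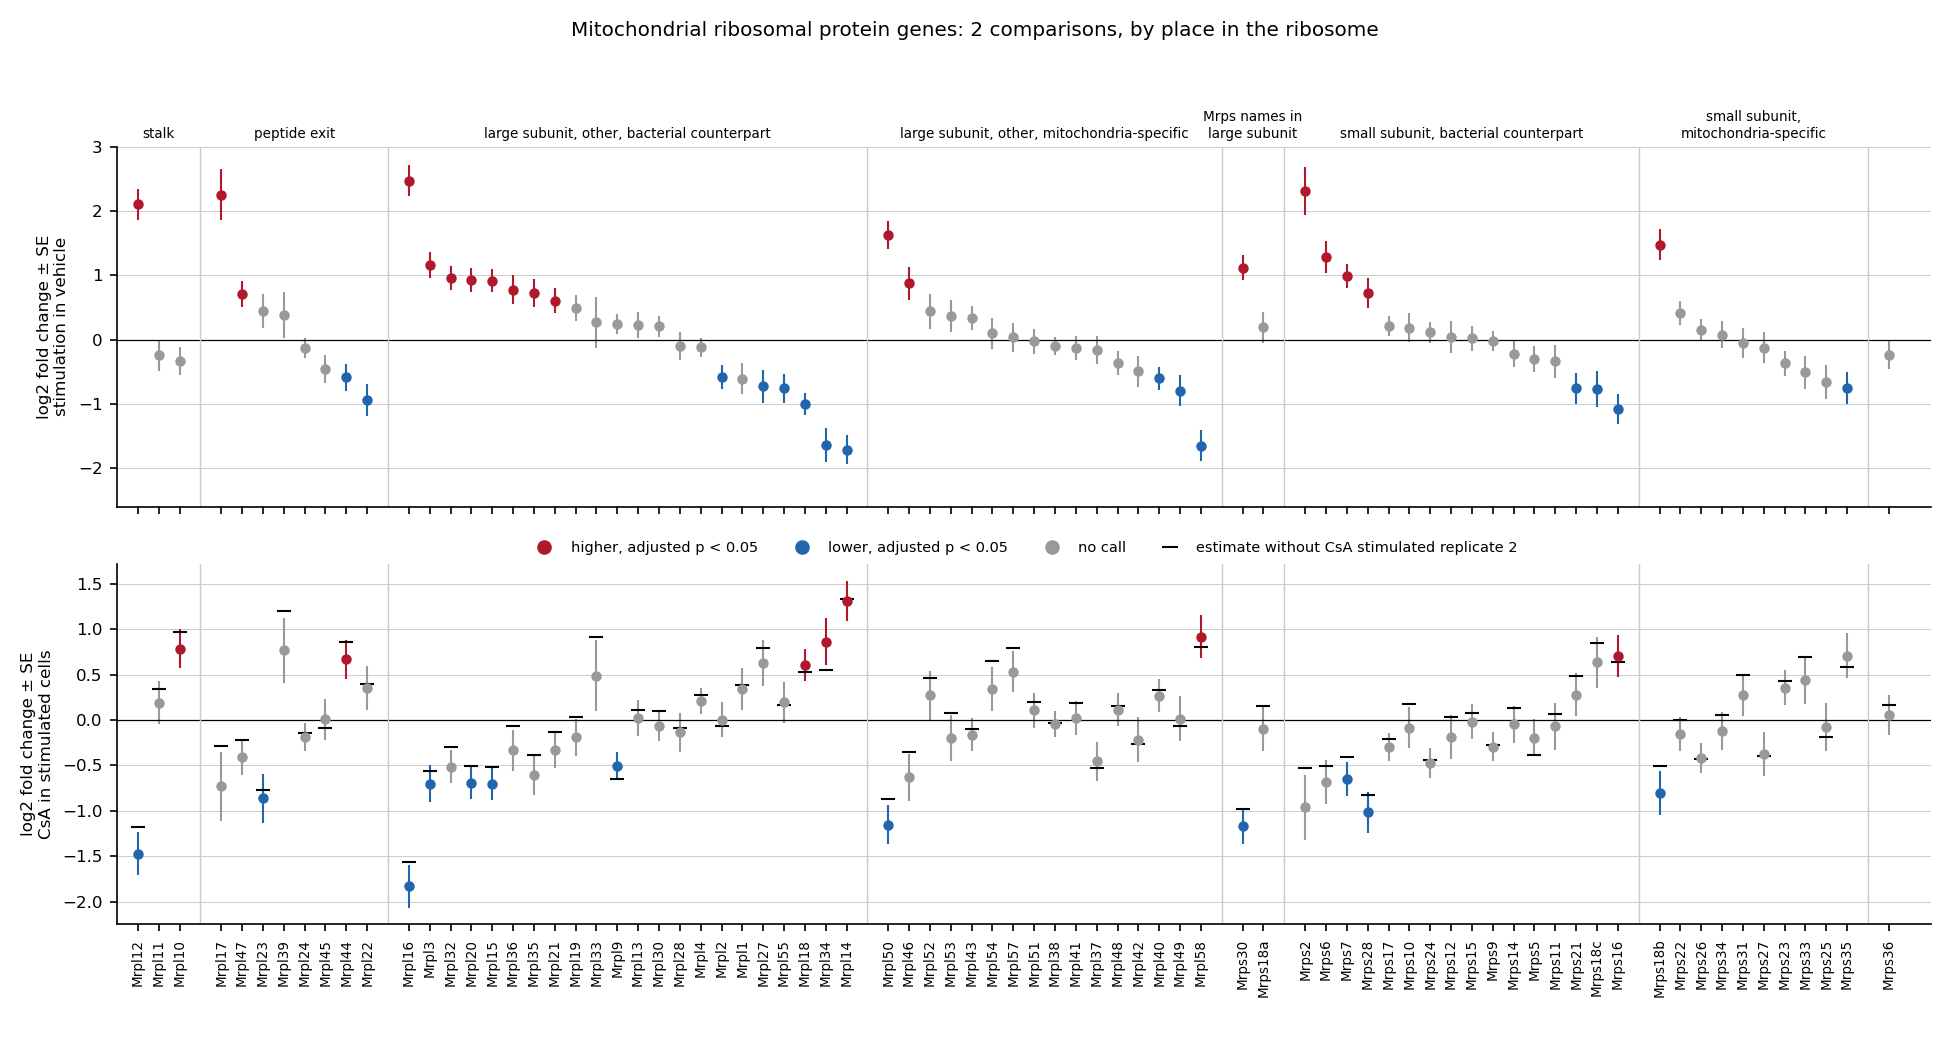
Log2 fold change ± SE (vertical axes) of the 78 members, grouped by their place in the ribosome (horizontal axis), for stimulation in vehicle (top) and for CsA in stimulated cells (bottom), with called members coloured and the estimate without CsA stimulated replicate 2 as a black dash. Called rises and falls on stimulation stand side by side within the tunnel exit, the other large subunit and the small subunit groups, from -1.72 for Mrpl14 to 2.47 for Mrpl16.

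By place in the ribosome, called members were spread over nearly all classes. Among names of the large subunit 13 of 49 rose and 11 fell on stimulation, and among names of the small subunit 6 of 29 rose and 4 fell. Of the 46 members classed here as having a bacterial counterpart 15 rose and 10 fell. Of the 32 not so classed 4 rose and 5 fell, and the medians were 0.15 and -0.08. With CsA in stimulated cells the former had 5 higher and 9 lower and the latter 2 higher and 3 lower. Without CsA stimulated replicate 2 the former had 6 higher and 6 lower and the latter 6 higher and 3 lower. Over all genes tested 20.1% rose and 19.7% fell on stimulation. With CsA in stimulated cells 10.3% were higher and 12.7% lower, or 10.4% and 12.1% without that library. Mrps18b, a relative of bacterial S18, and Mrps18a were counted among the 32, and Mrps18c among the 46. These counts describe the members and were not compared by a test.

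CsA in stimulated cells left 7 members higher and 12 lower, 24.4% of 78, where 23% of all genes tested were called, 10.3% higher and 12.7% lower. The median over members was -0.08 and over all genes 0.06. Without CsA stimulated replicate 2, 12 members were higher and 9 lower, against 10.4% and 12.1% of all genes. The members called in all 12 refits without 1 library were Mrpl14, higher, and Mrpl12, Mrpl15, Mrpl16, Mrpl50, Mrps28 and Mrps30, lower. All but 1 of these refits kept CsA stimulated replicate 2. Without vehicle stimulated replicate 1, 2 or 3 the counts were 2 higher and 7 lower, 2 and 7, and 3 and 6, while 14.8%, 15.9% and 15.4% of all genes were called (5.62%, 6.23% and 6.28% higher and 9.19%, 9.69% and 9.12% lower). Leaving out CsA stimulated replicate 1 left 4 higher and 12 lower, against 11.1% and 11.2% of all genes, with Mrpl32 and Mrpl35 newly lower and Mrpl9 and Mrpl23 no longer so. Scaled to library totals, where the median over all genes was 0.40, 17 members were higher and 5 lower, against 28.2% of all genes called, 19.9% higher and 8.29% lower.

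This comparison and that of stimulation in vehicle share the 3 vehicle stimulated libraries, so their fold changes are tied and are set side by side only. Of the 19 members that rose on stimulation, 10 were lower with CsA and 9 had no call, and of the 15 that fell, 6 were higher with CsA and 9 had no call. Without CsA stimulated replicate 2 the rises were 20, with 8 lower and 12 without a call, and the falls 18, with 7 higher and 11 without a call. No member was called in the same direction in both. Over all genes with 12 libraries, 1646 rises were lower with CsA and 1246 had no call. Of the falls over all genes 1253 were higher with CsA and 1583 had no call, with 0 in the same direction in both. Without CsA stimulated replicate 2, 1450 rises of all genes were lower and 1589 had no call. There 1061 falls were higher and 2341 had no call, while 96 genes were higher in both and 44 lower in both.

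The response to stimulation under CsA compares the 2 CsA groups, with the spread taken from all 12 libraries, and its calls depended on which libraries were in the fit. With all 12 libraries 1 member rose and 2 fell, 3.85% of 78 against 5.28% of all genes (3.9% higher and 1.38% lower). Without that library 9 rose and 15 fell, while 28.7% of all genes were called, 14.1% higher and 14.6% lower. The 3 called with all libraries were Mrps2 (1.72 ± 0.37, adjusted p = 0.0395), Mrpl34 (-1.16 ± 0.25, adjusted p = 0.0395) and Mrpl18 (-0.73, adjusted p = 0.0423). None of the 3 kept its call in all refits without 1 library, and in 9 of those 12 refits there were 0 calls, where at most 0.0408% of all genes were called. In a fit of the CsA libraries alone there were 0 calls among members and among all genes. Blocking on replicate number gave Mrpl18 an adjusted p of 0.0529. DESeq2 called 16 members, 4 higher and 12 lower, against 15.3% of all genes (9.58% higher and 5.71% lower).

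Without CsA stimulated replicate 2, Mrps2 (2.09, adjusted p = 8.39e-06), Mrpl17 (1.73, adjusted p = 2.59e-05) and Mrpl39 (1.58, adjusted p = 1.24e-05) had the largest rises under CsA. The largest falls were those of Mrpl34 (-1.54, adjusted p = 0.000146), Mrps25 (-1.02, adjusted p = 0.0158) and Mrpl58 (-0.99, adjusted p = 0.00816). Mrpl12 and Mrpl16, which rose by over 2 log2 units in vehicle, rose by 0.61 (adjusted p = 0.0099) and 0.60 (adjusted p = 0.028) under CsA.

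In CsA stimulated replicate 2, member levels often differed from those of replicates 1 and 3. For 59 of the 78 members its log2 CPM lay farther from their mean than those 2 libraries lay from each other, below it for 47 and above it for 12. The same count over all genes is not given here, but the library stood apart over all genes too. Its median absolute log2 CPM difference over all genes tested was 0.652 from replicate 1 and 0.598 from replicate 3. Between replicates 1 and 3 it was 0.290. Over the members these medians were 0.486, 0.420 and 0.123. From vehicle unstimulated replicate 2 its median difference was 0.121 over all genes tested and 0.108 over the members, where the highest was 0.436. The next lowest median of a pair over the members was 0.109. The largest differences were -1.87 for Mrpl17 and Mrpl39 and -1.81 for Mrps2 on one side, and 0.87 for Mrpl34, 0.60 for Mrps5 and 0.50 for Mrpl9 on the other. Its TMM factor was 1.14, within the range of the unstimulated libraries, against 0.871 and 0.910 in replicates 1 and 3.

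**Figure D4:**
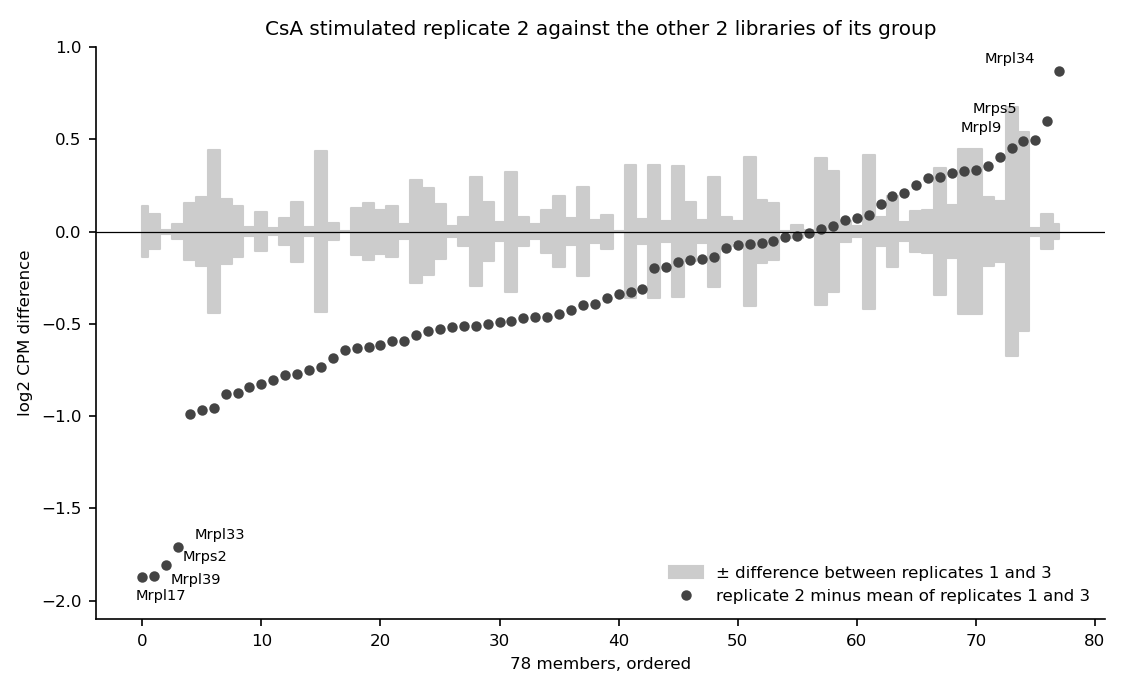
Log2 CPM of CsA stimulated replicate 2 minus the mean of replicates 1 and 3 (points, vertical axis) for the 78 members in order (horizontal axis), with the difference between replicates 1 and 3 as a grey band. Most points lie outside the band, from -1.87 for Mrpl17 to 0.87 for Mrpl34.

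The stimulation effect itself differed between CsA and vehicle for 7 members by the interaction term, 1 higher and 6 lower, 8.97% of 78 against 9.72% of all genes (3.54% higher and 6.19% lower). These were Mrpl16 (-2.07 ± 0.33, adjusted p = 0.00236), Mrpl12 (-1.73 ± 0.33, adjusted p = 0.00635), Mrps28, Mrps30, Mrpl50 and Mrpl15, for which the effect under CsA minus that in vehicle was negative, and Mrpl14, for which it was positive (1.07 ± 0.31, adjusted p = 0.0463). Mrpl12 and Mrpl16 were called in all 12 refits without 1 library, and no other member was. The count was 2 without vehicle unstimulated replicate 1, CsA unstimulated replicate 3 or vehicle stimulated replicate 1, where 5.36%, 5.28% and 5.27% of all genes were called. It was 3 without CsA unstimulated replicate 1 or vehicle stimulated replicate 2 or 3, where 7.95%, 6.19% and 5.87% were. Without CsA stimulated replicate 2 it was 9, with 2 higher and 7 lower against 12.4% of all genes (5.08% higher and 7.31% lower), and Mrpl39 (1.26 ± 0.21, adjusted p = 0.00175) and Mrpl9 (-0.76, adjusted p = 0.00964) joined the 7.

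No member was called for CsA in unstimulated cells, and 0.00695% of all genes were (0.0465% without CsA stimulated replicate 2, where again no member was called). Fold changes ran from -0.37 for Mrps2 to 0.39 for Mrps6, with a median of 0.13 and 65 of 78 above 0. The median and the share above 0 over all genes are not given here. A shift of the members therefore cannot be told apart from a shift of all genes by these values. At an unadjusted p under 0.05 edgeR counted 0 members and 3.23% of all genes, and without CsA stimulated replicate 2 it counted 3 members (3.85%) and 5.66% of all genes. DESeq2 called 0 at its adjusted p, where 0.118% of all genes were called.

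Genes that work with these proteins were described from lists of the pathway. Over all genes tested 20.1% rose and 19.7% fell on stimulation, and 10.3% were higher and 12.7% lower with CsA in stimulated cells. Of 5 mitoribosomal proteins with other names, 3 rose on stimulation and none fell: Ptcd3 (1.39), Gadd45gip1 (0.61) and Dap3 (0.53). The same 3 were lower with CsA in stimulated cells (-1.31, -0.78 and -0.55), also without CsA stimulated replicate 2. Of 15 translation factors 5 rose and 4 fell. Tufm, the elongation factor that delivers aminoacyl-tRNA, was at 95.7, 96.5 and 89.3 CPM in vehicle unstimulated, 257, 239 and 257 in vehicle stimulated and 161, 110 and 146 in CsA stimulated libraries, with a rise of 1.42 ± 0.17 (adjusted p = 4.88e-05). Mtrf1, a release factor of low level, fell by 2.44 ± 0.57 (adjusted p = 0.00499).

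Assembly and rRNA modification had 4 of 24 higher and 6 lower on stimulation. Mrm3, a methyltransferase of the large rRNA, rose from 7.5, 7.78 and 12.5 CPM to 54.2, 54.0 and 47.8 CPM in vehicle (2.49, adjusted p = 5.68e-05) and was at 17.1, 8.33 and 17.8 CPM in CsA stimulated libraries. Mrm2, another methyltransferase of the same rRNA, went the other way, from 7.16, 8.85 and 9.26 CPM to 0, 1.46 and 0.370 CPM (-3.70, adjusted p = 0.00467). Mitochondrial aminoacyl-tRNA synthetases had 2 of 17 higher and 3 lower, with Mars2 the largest rise (2.17) and Hars2 the largest fall (-1.49). Genes that transcribe and copy mitochondrial DNA had 1 of 12 higher, Tfb2m (0.87), and 3 lower, among them Mterf2 (-1.97). With CsA in stimulated cells Mars2 was lower (-1.95), as were Mrm3 (-1.85) and Tfb2m (-1.22), all 3 also without CsA stimulated replicate 2. Mrm2 (2.60, adjusted p = 0.0431) and Mterf2 (1.43, adjusted p = 0.0275) were higher only with CsA stimulated replicate 2 in the fit (adjusted p of 0.167 and 0.106 without it).

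Of 8 tested regulators of nuclear genes for mitochondria, 3 rose. Myc, a transcription factor of growing cells, was at 66.5, 103 and 55.7 CPM in vehicle unstimulated, 34.8, 49.1 and 32.9 in CsA unstimulated, 3878, 3707 and 3680 in vehicle stimulated and 673, 86.8 (replicate 2) and 749 in CsA stimulated libraries. The rise was 5.64 ± 0.69 (adjusted p = 0.000107), and replicate 2 was within the range of the vehicle unstimulated libraries. Pprc1, a coactivator related to PGC-1, was at 70.1, 76.6 and 38.5 CPM in vehicle unstimulated, 452, 461 and 420 in vehicle stimulated and 136, 77.2 and 139 in CsA stimulated libraries, and rose by 2.85 (adjusted p = 1.94e-05). Gabpa, a subunit of the ETS factor GABP, rose by 0.76 (adjusted p = 0.0252). Myc, Pprc1 and Gabpb1 were lower with CsA in stimulated cells (-2.90, -1.92 and -0.64), the last not without replicate 2 (adjusted p = 0.0514).

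The products of mitochondrial DNA were not called under TMM. None of its 13 messages and neither of its 2 rRNAs passed the test on stimulation or with CsA in stimulated cells, and the medians of the messages were 0.21 and 0.11. As a share of all counts they took 2.61%, 2.48% and 2.06% in vehicle unstimulated, 1.75%, 1.76% and 1.64% in vehicle stimulated and 2.72%, 2.49% (replicate 2) and 2.22% in CsA stimulated libraries, so that the vehicle stimulated libraries were the lowest by this measure. Scaled to library totals, the messages had a median of -0.41 on stimulation with 2 called lower, while 2 messages and both rRNAs were called higher with CsA in stimulated cells. Cytosolic ribosomal protein genes had 11 of 77 higher and none lower on stimulation, with a median of 0.39, against 19 and 15 of 78 members with a median of 0.03. Over all genes 20.1% were higher and 19.7% lower, with a median of -0.02. Under library totals 1 of the cytosolic genes was higher and 15 lower, with a median of -0.21. Over all genes that median was -0.63, with 11% higher and 37.8% lower. The direction of the calls turned with the scaling, but the median of the cytosolic genes lay above that over all genes under both. Nuclear-encoded subunits of the respiratory chain had 6 of 77 tested higher and 21 lower, from Ndufv3 (-2.07) to Atp5b (1.20), and under library totals 2 higher and 56 lower. With CsA in stimulated cells 0 cytosolic ribosomal protein genes were higher and 4 lower (8 higher and 0 lower under library totals, and 0 higher and 1 lower without CsA stimulated replicate 2). Of the respiratory chain subunits 9 were higher and 2 lower (30 and 1 under library totals, and 18 and 1 without that library). Over all genes 10.3% were higher and 12.7% lower with CsA in stimulated cells. Under library totals these shares were 19.9% and 8.29%, and without that library 10.4% and 12.1%. In summed TPM the cytosolic ribosomal proteins stood at 12.7 to 23.5 times the members, depending on the library.

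**Figure D5:**
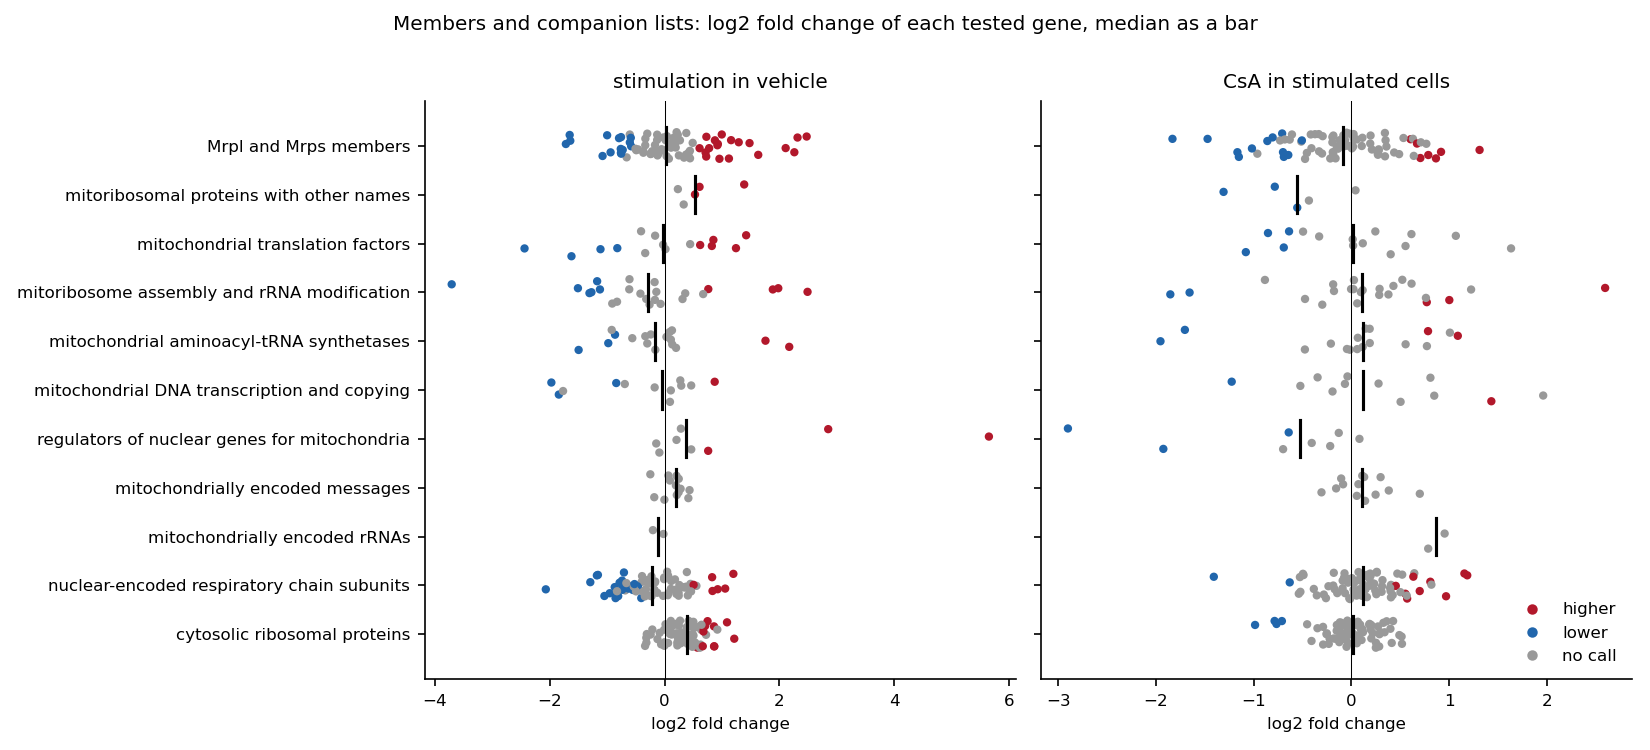
Log2 fold change (horizontal axes) of every tested member and of every tested gene of 10 companion lists (rows), for stimulation in vehicle (left) and CsA in stimulated cells (right), coloured by call, with the list median as a black bar. Members spread to both sides of 0 on stimulation, with a median of 0.03, while no cytosolic ribosomal protein gene is called lower under this TMM scaling (15 were under library totals).

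The members lie on 17 chromosomes and many have close neighbours. The tables do not state that counting used strand, and 36 members overlap another annotated gene on the opposite strand and 13 on the same strand, so for these some reads may belong to the neighbour. Of 39 pairs of a member and an overlapping gene that was tested, both were called on stimulation in 6. Mrpl46 with Mrps11 is counted from each side. Over all genes tested 39.8% were called, so unrelated genes can also both be called, and how often they were is not given here. In 4 of the 6 pairs both rose: Mrpl12 with Gm16755 (2.88), Mrps6 with Slc5a3 (1.68), Mrps18b with Gm16279 (1.33) and Mrps7 with Gga3 (0.90). In the other two, Mrpl18 with Tcp1 (1.58) and Mrpl36 with Ndufs6, the directions were opposite. Among members described above, the overlapping genes include Ict1os for Mrpl58, B430218F22Rik for Mrps30, Tmem63b for Mrpl14, Gm15645 for Mrpl17, Gm47106 for Mrpl3, Gm37144 for Mrpl15, Oaz3 for Mrpl9, Gm11574 for Mrpl10, Wdfy1 for Mrpl44, Gm11594 for Mrpl45, Syvn1 for Mrpl49, Ighmbp2 for Mrpl21, Gm15466 for Mrps28, Gm43511 for Mrps18c, Rsph9 for Mrps18a, Nr2c2 for Mrps25, Nme3 for Mrps34 and Urgcp for Mrps24. Mrpl16, Mrps2, Mrpl22, Mrpl23, Mrpl34, Mrpl39, Mrpl50 and Mrps16 overlap none. Reads can also be split between genes that share sequence. Of the 31-base words of Mrpl53 84.39% occur in Gm42688 and of those of Mrps34 35.58% in Nme3, genes that overlap them on the same strand. Likewise 12.62% of the words of Mrps6 occur in Slc5a3 and 31.88% of those of Mrps18c in Gm43511 and others. Slc5a3 and Gm43511 overlap these members on the same strand. Genes elsewhere share 35.45% of the words of Mrpl27 (Gm6304 and others), 20.86% of those of Mrpl32 (Gm6578), 16.67% of those of Mrps18b (Gm13552), 10.41% of those of Mrpl18 (Gm13675) and 8.4% of those of Mrpl12 (Gm15770).

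In 23 cases a member starts within 1000 bases of the start of a gene on the other strand that runs away from it, and 22 of these partners were tested. On stimulation in vehicle both genes of a pair were called in 4, only the member in 8, only the partner in 3 and neither in 7. Over all genes tested 39.8% were called, and pairs of unrelated genes were not set beside these counts. Of the 4, 3 moved in the same direction and 1 did not: Mrpl36 rose by 0.78 while Ndufs6, a subunit of respiratory complex I, fell (-0.74). Mrpl50 rose by 1.63 while Zfp189, whose start is 83 bases away, was at -0.51 (adjusted p = 0.239), and Mrps18b rose by 1.48 while Ppp1r10, 45 bases away, was at -0.08.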

How the data were processed

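RNA sequencing by SMART-seq covered 12 libraries, 3 in each of 4 groups given by the sample titles. Per the submitters' processing notes, the authors trimmed reads with cutadapt and quantified them with kallisto against mm10. Tool versions, and the annotation behind the transcripts, were not given in the sources used here. The deposited tables hold, per transcript, estimated counts, which the authors left unscaled for depth. TPM values in the deposited tables are scaled by the authors for length and depth, per the file headers. Of 109617 listed transcripts, 108214 were matched by identifier to the GENCODE mouse annotation on mm10. The 1403 others carried 0.494% to 0.628% of a library's counts and were left out.

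Each gene's value is the sum of its transcripts' estimated counts or TPM, 144 of the members' 297 transcripts being annotated as other than protein-coding, and counts were rounded. Tests used edgeR 4.0.16 in R 4.3.3: TMM scaling, the expression filter by group (minimum count 10, total 15), 1 robust quasi-likelihood fit of all 12 libraries, and Benjamini-Hochberg adjustment over all genes tested, with a call at an adjusted p under 0.05. The SE of a log2 fold change is its size over the root of F, the test's statistic. Alternatives used limma 3.58.1 on log2(TPM + 1) or log2(TPM + 0.1) for genes of at least 1 TPM in 3 libraries, DESeq2 1.42.0, RLE scaling, library totals, no filter, only the groups compared, the replicate number as a block, and leaving out each library. After the library labelled CsA_PI 2 was seen to stand apart, the block and the library totals were also run without it, and all pairs of libraries were compared by correlation and by a chi-square of their counts. The lowest count of a member in a library was 41.0, which sets the least precise values, and PCR-amplified reads were not collapsed to molecules.

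Same-numbered libraries deviated together from their group means. Their correlations were 0.143 to 0.319 for the pair of vehicle groups and 0.107 to 0.208 for the stimulated pair. For the unstimulated pair they were 0.196 to 0.325 and for the CsA pair 0.0333 to 0.123. Vehicle unstimulated with CsA stimulated libraries gave 0.133 to 0.264, and CsA unstimulated with vehicle stimulated ones 0.178 to 0.251. Each value was above the highest with another number, by least in the CsA pair (0.0333 against 0.0290). The main fit did not use the numbers, and calls with the number as a block are given below. The labels do not say what the numbers share.

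The members, role lists, companion lists and rules were chosen with earlier results of these data known. Named were 15 fixed members, the 8 largest and 8 smallest fold changes in the 2 main comparisons and 3 and 3 in the others, the 5 highest and 5 lowest levels, the extreme calls of each list (1 is not reported here) and the members in which CsA_PI 2 deviated most. Members named beyond these (Mrpl20, Mrpl21, Mrpl32 and Mrpl36, Mrps7 and Mrps35 among them) were chosen after their values were seen. Promoters came from RefSeq (GRCm38.p6), and the NRF1 motif was shortened from 10 to 8 bases after a first search had been seen.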

Additional observations from a re-analysis of the deposited data

Results flagged for a closer look

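Of 78 members, 7 had a stimulation effect that differed between CsA and vehicle by edgeR's interaction term with all 12 libraries, 8.97% against 9.72% of all genes tested. The difference, taken as the effect with CsA minus the effect in vehicle, was -2.07 for Mrpl16, -1.73 for Mrpl12, -1.27 for Mrps28, -1.20 for Mrps30, -1.18 for Mrpl50 and -0.90 for Mrpl15 on the log2 scale. For Mrpl14 it was 1.07. Their adjusted p-values were 0.00236, 0.00635, 0.0272, 0.0168, 0.0296, 0.0398 and 0.0463 in that order. Without CsA stimulated replicate 2 the differences were -1.81, -1.43, -1.08, -1.02, -0.91, -0.71 and 1.08, and all 7 were still called. Leaving out 1 library ended the call of Mrpl14 in 10 of 12 refits, of Mrpl15 in 9, of Mrpl50 in 8, of Mrps28 in 7 and of Mrps30 in 3.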

How the results depend on the processing

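For stimulation in vehicle, where the TMM-scaled fit called 34 members and 39.8% of all genes, library totals called 52 (48.7% of all genes), or 58 (52.1%) without CsA_PI 2, and leaving out 1 library gave 24 to 38 (29.9% to 43.7%). For CsA in stimulated cells, 19 members (23% of all genes) became 9 to 21 (14.8% to 22.5%) when 1 library was left out. For stimulation under CsA, 3 members (5.28% of all genes) became 0 with library totals (0.0347%), 0 with only the groups compared (0%), 0 with each of the 3 limma settings on TPM (0.0181% to 0.278%), 16 with DESeq2 (15.3%) and 34 with library totals without CsA_PI 2 (32.6%), and 0 to 24 (0% to 28.7%) when 1 library was left out. The interaction went from 7 members (9.72% of all genes) to 4 with library totals (10.3%), 4 without the low-count filter (4.37%), 3 with each limma setting (2.19% to 7.81%), and 2 to 9 (5.27% to 12.4%) when 1 library was left out. CsA in unstimulated cells gave 0 in every setting run, with at most 0.118% of all genes. The cause of these shifts was not tested.

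With the replicate number as a block, 34, 21, 0, 2 and 7 members were called (stimulation in vehicle, CsA with and then without stimulation, stimulation under CsA, interaction), beside 41.9%, 24.5%, 0.00695%, 3.06% and 11.1% of all genes, and 27 (32.1% of all genes) for stimulation under CsA without CsA_PI 2. Among named members the block with all libraries ended the calls of Mrps16 with CsA and of Mrpl18 under CsA and no other. The 40 results of named members that were called in the main fit had 915 values under alternatives. Of these 753 kept their direction and side of the threshold, 162 lost the call and 0 reversed. Named results without a call in the main fit were not counted. Calls gained under an alternative, as for Mrpl39 with CsA in stimulated cells, are therefore left out. The alternatives reuse the same libraries, so these counts are not an independent check. Rescaled to nuclear-encoded genes, summed member TPM in CsA stimulated cells was 4493 in place of 4315.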

Other observations

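Part of the members' counts came from transcripts annotated as other than protein-coding, between 17.5% and 20.6% in each library. The share was 100% for Mrpl32, which has no protein-coding transcript among those quantified, and at least 71.3% in every library for Mrpl3, Mrpl15, Mrps24 and Mrps26. For single members this share moved between groups. In Mrpl38 it was 35.5%, 32.9% and 37.2% in vehicle unstimulated, 82.5%, 80.9% and 82.0% in vehicle stimulated and 70.0%, 31.1% (replicate 2) and 50.7% in CsA stimulated libraries, so the vehicle groups did not overlap. In Mrps25 it was 17.0%, 22.6% and 11.1% in vehicle unstimulated and 46.6%, 39.9% and 44.1% in vehicle stimulated libraries, and in Mrpl52 20.1%, 8.2% and 8.4% against 26.8%, 31.7% and 29.0%. These shares rest on kallisto's division of reads between overlapping transcripts, were singled out after their values were seen and were not tested. In Mrps25 the fold change on stimulation depended on the unit as well, at -1.27 on counts scaled to library totals and -0.10 on log2(TPM + 1).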
